A study of Mus musculus with 30 samples.

Results

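The 33 genes described here encode the enzymes that build cholesterol and fatty acids and the proteins that set their level. They were taken by gene name from the deposited count table. All 33 were found once each. The table lists 46603 genes, and 25626 of them were detected by 1 read or more in any library. By role they were 5 regulators (Srebf1, Srebf2, Insig1, Insig2 and Scap), 8 genes of the mevalonate and isoprenoid steps (Acat2, Hmgcs1, Mvk, Pmvk, Mvd, Idi1, Fdps and Ggps1), 11 of the squalene and sterol steps (Fdft1, Sqle, Lss, Cyp51, Tm7sf2, Msmo1, Nsdhl, Hsd17b7, Ebp, Sc5d and Dhcr7), 1 sterol carrier (Stard4) and 8 of fatty acid synthesis (Acly, Acaca, Fasn, Elovl6, Scd1, Scd2, Fads1 and Fads2). All 33 passed the filter on low counts in every comparison, so no member dropped out.

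The libraries came from macrophages of 3LL-R tumours, a Lewis lung carcinoma line grown under the skin of wild-type C57BL/6 mice and therefore not in the lung. The macrophages were sorted into an MHC-IIhi and an MHC-IIlo subset. MHC class II, the surface protein that set the gate, shows peptides to CD4+ T cells. Each subset was taken in 3 states. Fresh cells, 30000 per library, were lysed straight after sorting. Cultured cells, 250000 per library, were kept 24 h without or with 20 mM sodium L-lactate and lysed in the well. No group received another sodium salt. Each of the 6 groups held 5 libraries that the labels call biological replicates. Whether a library came from 1 mouse or from pooled mice is not given in the sources used here, so a p-value below measures the spread between libraries of this kind. Total counts per library ran from 16913250 to 21407666 in fresh cells and from 16965012 to 31481548 after culture.

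Cells make cholesterol from acetyl-CoA. The mevalonate steps yield isoprenoid units, squalene synthase joins these into squalene, and cyclisation and a series of oxidations, reductions and demethylations turn squalene into cholesterol. Most of these enzymes are transcribed under SREBP2, the product of Srebf2, while SREBP1, the product of Srebf1, drives much of fatty acid synthesis. Both precursors are held in the endoplasmic reticulum by Scap and Insig proteins while sterols are abundant and are released, cut and sent to the nucleus when sterols fall. In macrophages the pathway runs against cholesterol taken up from dead cells and lipoproteins, which is stored as ester or exported under the sterol sensor LXR.

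Promoter sequence is shown for 5 members whose transcripts differed between subsets or after culture, because classical SREBP targets carry a sterol regulatory element beside a CCAAT box, the binding site of NF-Y. The sequences are RefSeq promoter windows (GRCm38.p6), each up to 250 bases before the start site, written 5′ to 3′ on the strand of the gene and ended where annotated exons begin. Capitals mark matches to the sterol element core TCACNCCA, to the NF-Y box CCAAT or to the E-box CACGTG, searched on both strands. A CCAAT match on the opposite strand appears in capitals as its reverse complement. Hmgcs1 is at chr13:119690101-119690350 on the plus strand, Srebf2 at chr15:82147019-82147180 on the plus strand, Pmvk at chr3:89454291-89454540 on the plus strand, Mvd at chr8:122443423-122443672 on the minus strand and Insig1 at chr5:28071162-28071362 on the plus strand.
Hmgcs1: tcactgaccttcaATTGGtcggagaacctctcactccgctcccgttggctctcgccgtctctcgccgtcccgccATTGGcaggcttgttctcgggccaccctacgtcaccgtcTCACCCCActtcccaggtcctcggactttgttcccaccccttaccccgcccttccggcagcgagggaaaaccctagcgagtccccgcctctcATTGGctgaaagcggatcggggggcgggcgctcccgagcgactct
Srebf2: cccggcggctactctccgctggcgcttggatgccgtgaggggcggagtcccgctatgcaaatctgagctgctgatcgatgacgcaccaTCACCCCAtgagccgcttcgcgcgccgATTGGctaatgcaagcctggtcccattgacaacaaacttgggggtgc
Pmvk: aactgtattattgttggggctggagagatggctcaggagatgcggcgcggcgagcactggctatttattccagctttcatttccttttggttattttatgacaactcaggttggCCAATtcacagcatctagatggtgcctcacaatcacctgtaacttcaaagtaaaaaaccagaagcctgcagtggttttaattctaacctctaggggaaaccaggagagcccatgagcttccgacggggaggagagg
Mvd: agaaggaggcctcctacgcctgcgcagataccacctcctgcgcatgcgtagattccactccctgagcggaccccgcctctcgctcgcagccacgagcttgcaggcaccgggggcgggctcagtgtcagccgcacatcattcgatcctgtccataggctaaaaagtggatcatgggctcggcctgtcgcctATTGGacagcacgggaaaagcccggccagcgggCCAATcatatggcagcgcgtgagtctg
Insig1: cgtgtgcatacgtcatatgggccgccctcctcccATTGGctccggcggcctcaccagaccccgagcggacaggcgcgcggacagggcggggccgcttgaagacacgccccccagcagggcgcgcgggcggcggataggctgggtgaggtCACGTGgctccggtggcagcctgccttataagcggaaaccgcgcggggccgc

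The Hmgcs1 window held the sterol element core 137 bases before the start site with 3 CCAAT matches, and the Srebf2 window held it 162 bases before the start site with 1 CCAAT match. The Pmvk window shown and that of Mvd held CCAAT matches alone. Pmvk has a second RefSeq start site, and its window, up to annotated exons, held none of these motifs. Insig1 held 1 CCAAT match and 1 E-box. RefSeq windows were on hand for 26 of the 33 members, 34 windows in all, since 5 members had more than 1 start site. Over the full 250 bases, exon bases included, TCACNCCA was in 3 of the 34 member windows (Hmgcs1, Msmo1 and Srebf2) and in 3.67% of 32851 windows of all genes. CCAAT was in 21 of the 34 and in 33.8% of all windows, and CACGTG in 5 of the 34 and in 6.02% of all. These are letter matches. Binding was not measured, and a window with no match says only that these letters are not in it.

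Levels are given as CPM, a gene's share of its library's counts, with libraries scaled to each other by the TMM method over all 30. A gene was called changed at a Benjamini-Hochberg adjusted p under 0.05 over all genes tested, from edgeR's quasi-likelihood test. Every adjusted p below is of that kind, and every fold change is on the log2 scale with its standard error (SE). To compare genes with each other, CPM was divided by exonic length in kb. In fresh MHC-IIhi cells the highest level per kb was that of Acly, the enzyme that makes cytosolic acetyl-CoA from citrate, with 106 ± 4.82 CPM per kb (SD, n = 5). Srebf2 followed with 68.7 ± 4.62 and Scd2, a stearoyl-CoA desaturase, with 64.5 ± 7.17 CPM per kb. Srebf2 and Scd2 did not differ beyond their spread, and the next gene, Mvd, stood well below both at 29.4 ± 2.66 CPM per kb. The lowest were Idi1 (0.706 CPM per kb), Fdps (1.28 CPM per kb) and Acaca (1.31 CPM per kb). Across the 6 groups, the mean CPM was highest in fresh MHC-IIhi for 26 of the 33 members and lowest in MHC-IIlo cultured without lactate for 15.

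**Figure D1:**
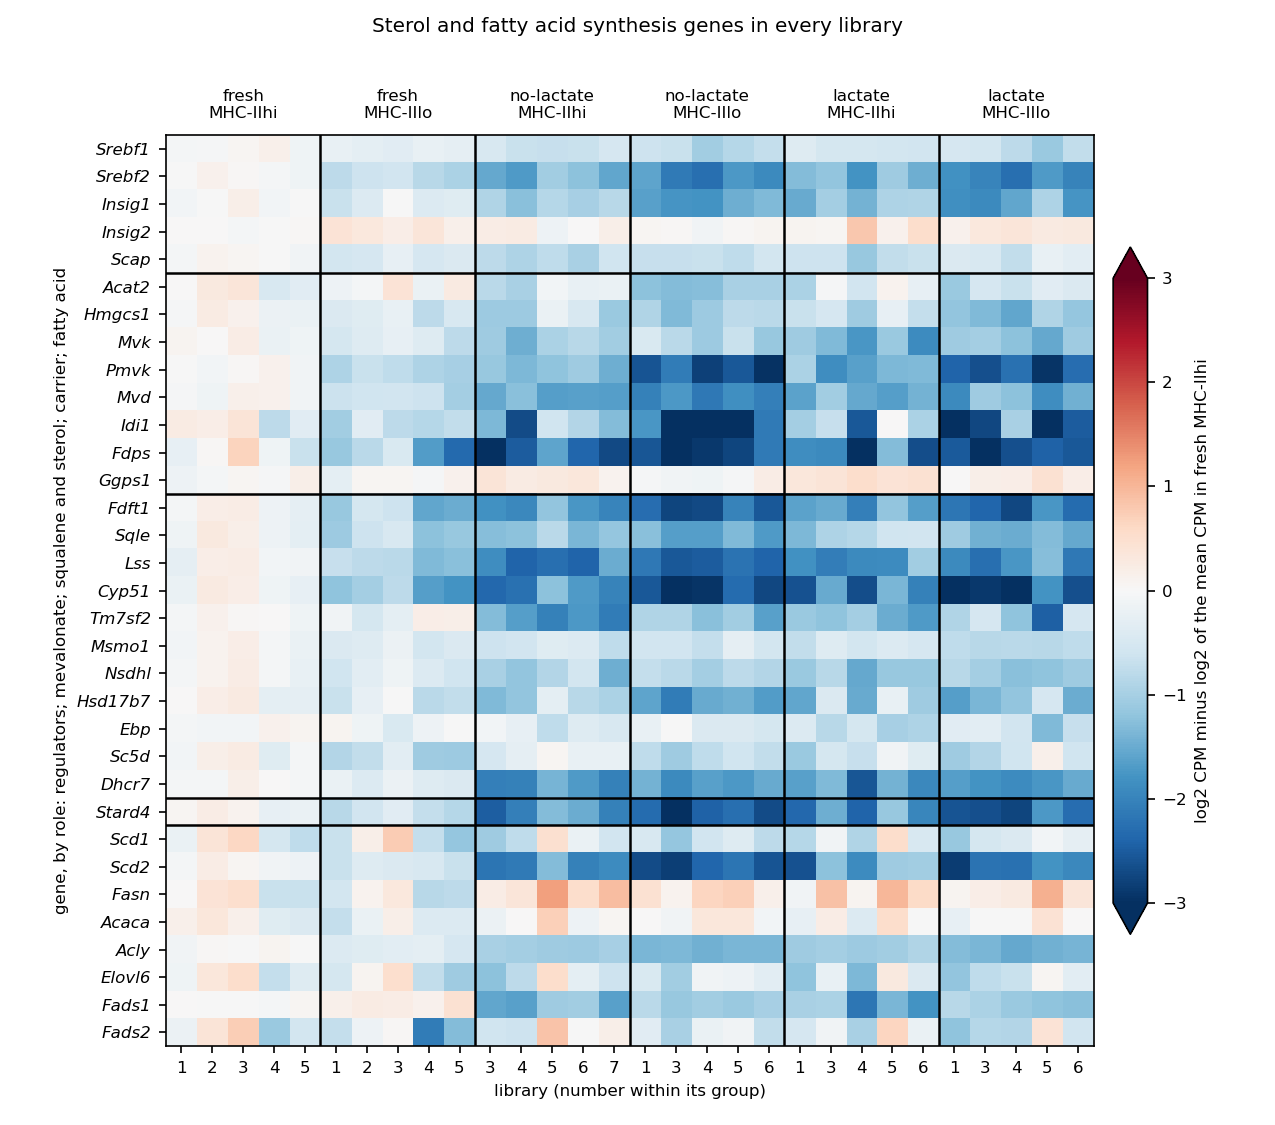
Level of each of the 33 genes (rows, ordered by role) in each of the 30 libraries (columns, by group, numbered within the group), as log2 CPM minus log2 of the gene's mean CPM in fresh MHC-IIhi; blue is lower, red is higher, and the colour scale ends at 3 on either side. Most sterol genes, Acly and Scd2 are blue in the cultured groups, while Fasn is red in most cultured libraries.

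Counts for some members carry a limit set by the gene models. Idi1 had 776 reads over all libraries and as few as 2 in 1 library. Fdps had 1249 reads, and 26.7% of its exonic bases are shared with the gene model Gm43738 on the same strand, as are 12.1% of those of Tm7sf2 with Vps51. On the opposite strand, Fdft1 shares 18.3% of its exonic bases with Ctsb, Scap 13.2% and Hmgcs1 12.1% with other gene models. These shares are of exons in the GENCODE vM21 annotation. Its exonic lengths exceed the deposited ones for Fdft1 (4227 against 2860 bases), Hmgcs1 (4594 against 3233) and Tm7sf2 (4403 against 3484). Whether the shared bases of these genes were counted is not known. Whether the authors' counting used strand is not given in the sources used here, so reads of such partners cannot be told apart. Results that name Idi1, Fdps, Tm7sf2, Fdft1, Scap or Hmgcs1 are uncertain to that extent throughout.

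In fresh cells, sterol synthesis genes were lower in the MHC-IIlo subset. Of the 33 members, 20 were lower and 2 higher in MHC-IIlo, while 11 were not called. Over the 12787 genes tested, 15.2% were lower and 14% higher. The members' median log2 fold change was -0.45, against 0.00 for all genes. For 15 members all 5 MHC-IIlo libraries lay below all 5 MHC-IIhi libraries, and for 2 all lay above. Over all genes 11.8% and 9.42% had ranges apart in these directions. In bulk RNA, fewer cells of a type and less RNA per cell cannot be told apart, and this holds for each difference below.

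Among the 5 regulators, 4 were lower in fresh MHC-IIlo cells and 1 was higher. Srebf2, which encodes SREBP2, read 339.8, 376, 351, 331 and 315 CPM in MHC-IIhi libraries 1 to 5 and 200.3, 224, 231, 193 and 178 CPM in MHC-IIlo libraries 1 to 5. The lowest MHC-IIhi library was above the highest MHC-IIlo library, with a log2 fold change of -0.74 (SE 0.09, adjusted p = 6.5e-05). Scap, the escort that carries SREBP to the Golgi, was lower in MHC-IIlo at -0.45 (SE 0.08, adjusted p = 0.00101), Insig1, itself an SREBP target, at -0.36 (adjusted p = 0.0312), and Srebf1 at -0.27 (adjusted p = 0.00633). Insig2, the second retention protein, went the other way. It read 25.2 to 27 CPM in MHC-IIhi and 29.3 to 34.8 CPM in MHC-IIlo, with no overlap, a difference of 0.29 (SE 0.07, adjusted p = 0.00623). With all 30 libraries in 1 fit, Insig1 (adjusted p = 0.0984) and Insig2 (adjusted p = 0.0538) were no longer called. The Insig1 call was also lost without MHC-IIhi library 2, 3 or 5 or MHC-IIlo library 1, 2, 4 or 5.

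Of the 8 mevalonate and isoprenoid genes, 5 were lower and none higher in fresh MHC-IIlo cells. Pmvk, the phosphomevalonate kinase whose promoter is shown above, read 40.3, 38.1, 41.4, 44.3 and 37.7 CPM in MHC-IIhi and 21.4, 25.5, 23.8, 21.4 and 20.1 CPM in MHC-IIlo. Its groups were far apart, with a log2 fold change of -0.84 (SE 0.09, adjusted p = 1.6e-05). This was the smallest p among the members. Mvd, the decarboxylase of the following step, read 50.4, 47.3, 57.2, 56.2 and 47.8 CPM in MHC-IIhi and 32.9, 34.2, 34.7, 33.8 and 25.6 CPM in MHC-IIlo. The ranges did not meet, and the change was -0.68 (SE 0.10, adjusted p = 2.2e-04). Hmgcs1, which makes HMG-CoA, and Mvk, mevalonate kinase, were each lower by a log2 fold change of -0.45 (adjusted p = 0.0143 and 0.0160). Hmgcs1 was not called with all 30 libraries in 1 fit (adjusted p = 0.0576). Fdps, farnesyl diphosphate synthase, had a change of -1.13 (SE 0.35, adjusted p = 0.0271) on few reads, a call lost without MHC-IIhi library 3 or MHC-IIlo library 1 or 4. Idi1, the isomerase of the isoprenoid unit, was at -0.74 and did not pass (adjusted p = 0.0670). Acat2, the cytosolic thiolase that opens the pathway, was at 0.07, and Ggps1, which diverts isoprenoids to protein prenylation, at -0.01. The 95% intervals of these last differences ran from -0.37 to 0.50 and from -0.24 to 0.22.

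Of the 11 genes of the squalene and sterol steps, 8 were lower in fresh MHC-IIlo cells and none higher. Cyp51, the lanosterol demethylase, read 97.1, 134, 128, 101 and 93.0 CPM in MHC-IIhi and 47.6, 54.5, 63.7, 35.2 and 32.1 CPM in MHC-IIlo. The lowest MHC-IIhi library was above the highest MHC-IIlo library, and the change was -1.24 (SE 0.19, adjusted p = 3.1e-04). Fdft1, squalene synthase, was lower at -0.99 (SE 0.20, adjusted p = 0.00265). Lss, the cyclase that makes lanosterol, was lower at -0.95 (SE 0.15, adjusted p = 4.3e-04), and Sqle, the epoxidase before it, at -0.88 (SE 0.17, adjusted p = 0.00163). Sc5d, which adds a ring double bond, was lower at -0.78, Nsdhl and Msmo1, which take part in removing the C4 methyl groups, at -0.40 and -0.39, and Dhcr7, the reductase of the last double bond in one branch, at -0.32. Dhcr7 was not called with all 30 libraries in 1 fit (adjusted p = 0.158), and Nsdhl was not called without MHC-IIhi library 2 or 3 or MHC-IIlo library 1, 4 or 5. Hsd17b7 was at -0.45 and did not pass (adjusted p = 0.0788). Some alternatives called it lower, among them a fit with same-numbered libraries as a block (-0.46, adjusted p = 5.4e-04). Ebp, a sterol isomerase, was at -0.13 and Tm7sf2, a sterol reductase, at -0.08, with intervals from -0.32 to 0.06 and from -0.42 to 0.25. Stard4, which moves sterol between membranes, read 39.5 to 54.7 CPM in MHC-IIhi and 25.8 to 36.9 CPM in MHC-IIlo, a change of -0.65 (SE 0.13, adjusted p = 0.00205) with no overlap.

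Fatty acid synthesis genes differed less between the fresh subsets, with 2 of 8 lower, 1 higher and 5 not called. Scd2 read 335, 412, 368, 325 and 318 CPM in MHC-IIhi and 221, 268, 261, 253 and 222 CPM in MHC-IIlo. No library overlapped, and the change was -0.52 (SE 0.10, adjusted p = 0.00131), although the call was lost with all 30 libraries in 1 fit (adjusted p = 0.0873). Acly read 520.2 to 587 CPM against 395 to 458 CPM, a change of -0.37 (SE 0.07, adjusted p = 0.00107), which was not called from the FPKM values (adjusted p = 0.0895). Fads1, the delta-5 desaturase of polyunsaturated fatty acids, was higher in MHC-IIlo by 0.24 (adjusted p = 0.0191, and 0.309 with all 30 libraries in 1 fit). Fasn (-0.27), Acaca (-0.28), Elovl6 (-0.23), Scd1 (-0.14) and Fads2 (-0.65) were not called, and their 95% intervals were wide, reaching from -0.89 to 0.36 for Fasn. With same-numbered libraries fitted as a block, Fasn (-0.26, adjusted p = 0.00585) and Fads2 (-0.68, adjusted p = 0.00520) were called lower, while Acaca, Elovl6 and Scd1 were not.

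**Figure D2:**
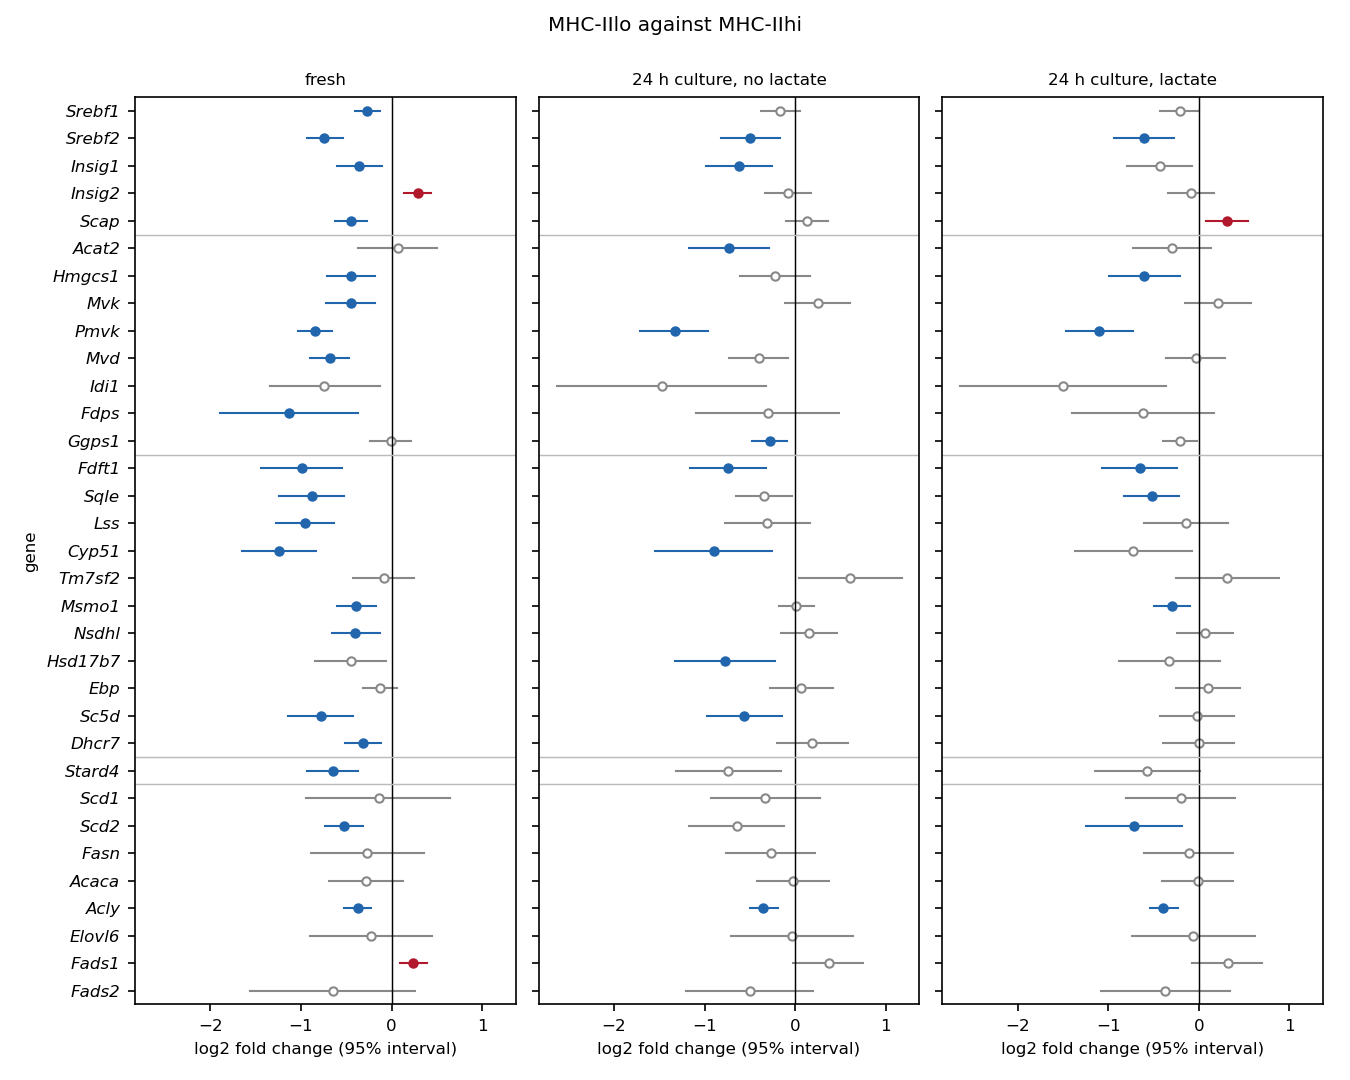
Log2 fold change of MHC-IIlo against MHC-IIhi for the 33 genes, by role, in fresh cells and in culture without and with lactate; points are the fitted values, lines their 95% confidence intervals, and filled points passed an adjusted p under 0.05. Pmvk, Fdft1, Srebf2 and Acly were lower in MHC-IIlo in all 3 states.

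Markers of other cell types also differed between the fresh subsets. The MHC class II genes themselves, which the sort selects, summed to 20695 to 25959 CPM in MHC-IIhi and 461 to 1029 CPM in MHC-IIlo. Of 10 macrophage markers, 7 were higher and none lower in MHC-IIlo, with sums of 21439 to 27542 and 25598 to 30728 CPM. Of 10 dendritic cell markers, 8 were tested and 7 were lower in MHC-IIlo. They summed to 26 to 48.5 and 5.49 to 8.53 CPM, with Xcr1 at 0 in MHC-IIlo. Of 8 neutrophil markers, 7 were tested and 6 were higher in MHC-IIlo, with sums of 276 to 717 and 1023 to 2019 CPM. Mmp9 was the most abundant of these, with means of 253 and 755 CPM. Of the T and NK cell markers, 2 of 4 tested were lower in MHC-IIlo, with sums of 10.6 to 13.8 CPM in MHC-IIhi and 2.46 to 6.09 CPM in MHC-IIlo. Of the B cell markers, 2 of 3 tested were lower, and no fresh library summed above 30.3 CPM. Of the fibroblast markers, 4 of 8 tested were higher in MHC-IIlo, with sums of 22.6 to 74.8 and 37.7 to 119 CPM. Of the endothelial markers, 2 of 3 tested were higher in MHC-IIlo, although the sums, 91.8 to 129 and 92.4 to 115 CPM, overlapped. Of the epithelial list, 1 of 2 tested was lower. The epithelial list summed to 506 to 579.8 CPM in MHC-IIhi and 138 to 281 CPM in MHC-IIlo, most of it Cdh1, with Cldn4 and Sftpc at 0 in both. Of 8 adipocyte genes, relevant to a lipid gene list, Adipoq, Lep and Pck1 were at 0 in all 6 groups. Fabp4, the only 1 of the 8 tested, was at 1.08 in fresh MHC-IIlo against MHC-IIhi and was not called. None of 12 proliferation genes was called between the fresh subsets. The part of other cells in the sterol gene differences was not tested.

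Culture for 24 h without lactate went with lower levels of most sterol genes in both subsets. In MHC-IIhi cells 24 members fell and 2 rose, where 30.4% of the 13682 genes tested fell and 31.6% rose. In MHC-IIlo cells 24 fell and 1 rose, against 29.9% and 27.6% of all genes. The members' median log2 fold change was -0.97 in MHC-IIhi and -1.0 in MHC-IIlo. The same 22 genes fell in both subsets, and for 16 of these the fresh and cultured ranges lay apart in both. The share of all genes that did so in both subsets was not counted. Ranges lay apart with the cultured cells lower for 20 members in each subset, against 22.9% and 23.6% of all genes. Fresh and cultured libraries also differed in the number of cells and in how they were lysed, and these cannot be told apart from time in culture.

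Cell type markers moved with culture as well. Of the 10 macrophage markers, 4 rose and 6 fell in MHC-IIhi and 3 rose and 6 fell in MHC-IIlo. Their sums were 7019 to 15364 CPM in cultured MHC-IIhi and 11698 to 15765 CPM in cultured MHC-IIlo, below every fresh library, where the lowest was 21439 CPM. All 4 MHC class II genes fell in both subsets. Of 8 dendritic cell markers tested, 3 rose and 1 fell in MHC-IIhi, and 3 fell in MHC-IIlo. In MHC-IIhi the sum went from 26 to 48.5 CPM fresh to 100.1 to 306 CPM cultured. Most of the cultured sum was Ccr7 alone (mean 146 CPM). Of 7 neutrophil markers, 2 rose and 4 fell in MHC-IIhi, and 1 rose and 4 fell in MHC-IIlo. Of 8 fibroblast markers, 1 rose in MHC-IIhi, while 1 rose and 6 fell in MHC-IIlo. Of 6 T and NK cell markers, 3 fell in each subset, and of 3 B cell markers, 1 rose and 2 fell in each. Of 3 endothelial markers tested, 2 rose and 1 fell in MHC-IIhi, and 1 rose and 2 fell in MHC-IIlo. Their sums were 315 to 647 CPM in cultured MHC-IIhi and 274 to 369 CPM in cultured MHC-IIlo, above every fresh library. Most of these sums was Kdr alone (means of 384 and 302 CPM). Of 3 epithelial markers tested, 1 rose and 2 fell in MHC-IIhi, and 2 fell in MHC-IIlo. The epithelial list summed to at most 84.3 CPM after culture without lactate, below every fresh library. The adipocyte list gene Fabp4 rose in both subsets (3.22 and 3.65), from means of 2.18 to 20.4 CPM in MHC-IIhi and 4.58 to 57.6 CPM in MHC-IIlo. After culture without lactate it was higher in MHC-IIlo than in MHC-IIhi (1.51). The part of other cells in the culture results was not tested.

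Fatty acid synthesis genes moved in both directions with culture. Acly read 520.2, 575, 552, 587 and 558 CPM in fresh MHC-IIhi libraries and 284, 276, 267, 261 and 282 CPM in cultured MHC-IIhi libraries 3 to 7. In MHC-IIlo it read 422, 433, 445, 458 and 395 CPM fresh and 217, 219, 204, 217 and 216 CPM in cultured libraries 1, 3, 4, 5 and 6. The fall was close to the same in both, -1.02 (SE 0.07, adjusted p = 2.0e-11) and -1.0 (SE 0.07, adjusted p = 3.5e-11), and no library overlapped. Scd2 read 318 to 412 CPM in fresh MHC-IIhi and 76.7, 80.5, 142, 86.8 and 94.9 CPM after culture. In MHC-IIlo it read 221 to 268 CPM fresh and 54.6, 49.6, 68.0, 76.7 and 58.6 CPM after culture. These falls, -1.86 (SE 0.15, adjusted p = 6.6e-10) and -1.99 (SE 0.15, adjusted p = 3.2e-10), were among the largest of the 33. Fads1 fell in both, with log2 fold changes of -1.36 in MHC-IIhi and -1.24 in MHC-IIlo. Fasn, the fatty acid synthase itself, rose in both, by 0.71 in MHC-IIhi (SE 0.26, adjusted p = 0.0206) and 0.70 in MHC-IIlo (SE 0.26, adjusted p = 0.0240). Its libraries overlapped, with 116 to 260.1 CPM fresh and 217 to 432 CPM cultured in MHC-IIhi and 104 to 232 against 199 to 302 CPM in MHC-IIlo. The Fasn call in MHC-IIlo was lost without fresh library 1, 4 or 5 of that subset or without its cultured library 4 or 5, and the MHC-IIhi call without fresh library 4 or 5 or cultured library 5. Acaca, Elovl6, Scd1 and Fads2 were not called in either subset. Among the alternatives, limma voom with quality weights (0.53, adjusted p = 0.00637) and a replicate block (0.51, adjusted p = 0.0460) called Acaca higher in MHC-IIlo.

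Among the mevalonate genes, Mvd read 47.3 to 57.2 CPM in fresh MHC-IIhi and 17.8, 21.7, 16.4, 16.8 and 16.6 CPM after culture, a fall of 1.53 on the log2 scale (SE 0.11, adjusted p = 7.4e-11). In MHC-IIlo it read 25.6 to 34.7 CPM fresh and 12.8, 15.7, 11.8, 14.5 and 12.5 CPM after culture, and fell by 1.25 (SE 0.11, adjusted p = 2.2e-09). Cultured and fresh ranges were apart in both subsets. Pmvk fell from 37.7 to 44.3 CPM to 18.5, 15.9, 17.5, 19.4 and 14.7 CPM in MHC-IIhi (-1.22, adjusted p = 2.1e-08). In MHC-IIlo it fell from 20.1 to 25.5 CPM to 6.69, 9.37, 5.75, 6.98 and 5.15 CPM (-1.72, SE 0.13, adjusted p = 2.5e-10), the lowest group mean of this gene. Hmgcs1 and Mvk also fell in both subsets, as did Idi1 and Fdps on their few reads, Hmgcs1 by less (-0.73 in MHC-IIhi and -0.52 in MHC-IIlo). The fall of Mvk in MHC-IIlo (-0.35, adjusted p = 0.0358) was not called from the FPKM values (-0.13, adjusted p = 0.305) or without fresh library 2, 3 or 4 or cultured library 3, 4 or 6 of that subset. Acat2 fell in MHC-IIlo (-1.21, adjusted p = 2.1e-05) and was at -0.41 in MHC-IIhi (adjusted p = 0.0735), and the difference between these effects was -0.80 (adjusted p = 0.0552). Some alternatives called Acat2 lower in MHC-IIhi. These were limma voom with quality weights (adjusted p = 0.0159), the FPKM values (adjusted p = 0.0184 to 0.0207) and same-numbered libraries as a block (adjusted p = 0.0385). Ggps1 was higher after culture in MHC-IIhi by 0.29 (adjusted p = 0.0137), but the sign turned with the FPKM values (-0.02, adjusted p = 0.806), and in MHC-IIlo it was at 0.01.

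Among the sterol steps, Dhcr7 read 31.1 to 37.0 CPM in fresh MHC-IIhi and 7.90, 7.99, 12.5, 10.1 and 8.0 CPM after culture, a fall of 1.80 (SE 0.13, adjusted p = 8.5e-11). In MHC-IIlo it fell by 1.31 (SE 0.13, adjusted p = 1.3e-08), from 24.3 to 29.1 CPM to 8.69 to 12.3 CPM. Although lower in MHC-IIlo when fresh, Dhcr7 thus had overlapping levels in the cultured subsets. Lss fell in both, with log2 fold changes of -2.03 in MHC-IIhi and -1.39 in MHC-IIlo. So did Cyp51 (-1.84 and -1.5), Fdft1 (-1.68 and -1.43) and Sqle (-1.15 and -0.61), in the same order of subsets. Nsdhl and Hsd17b7 also fell in both, as did Tm7sf2 with the shared exon bases given above. Ebp and Msmo1 fell in MHC-IIhi (-0.37 and -0.53) and did not pass in MHC-IIlo (-0.18 and -0.14). The difference between subsets was not called for these (adjusted p = 0.512 and 0.0625). In MHC-IIlo, limma voom with quality weights called Ebp lower (adjusted p = 0.0251), and the FPKM values called Msmo1 lower (adjusted p = 0.0379 to 0.0434). The Ebp call in MHC-IIhi was lost with same-numbered libraries as a block (adjusted p = 0.0886). Sc5d was the sterol gene with no call in either subset, at -0.21 in MHC-IIhi and 0.02 in MHC-IIlo. With the FPKM values Sc5d was called lower in MHC-IIhi (adjusted p = 0.0280 to 0.0313). Stard4 read 39.5 to 54.7 CPM in fresh MHC-IIhi and 8.36, 11.2, 19, 16.7 and 11.4 CPM after culture, falling by 1.80 (SE 0.20, adjusted p = 9.1e-08). In MHC-IIlo it fell by 1.90 (SE 0.20, adjusted p = 6.9e-08), from 25.8 to 36.9 CPM to 4.59 to 9.82 CPM.

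The regulators fell as well, by different amounts. Srebf2 went from 315 to 376 CPM in fresh MHC-IIhi to 118, 106, 166, 145 and 116 CPM after culture (-1.39, SE 0.13, adjusted p = 5.9e-09), and from 178 to 231 CPM to 115, 79.3, 71.4, 103 and 91.4 CPM in MHC-IIlo (-1.15, SE 0.13, adjusted p = 1.1e-07). The ranges were apart in both subsets. Insig1 fell in MHC-IIhi (-0.95) and MHC-IIlo (-1.22), as did Srebf1 (-0.60 and -0.50). Scap fell by 0.79 in MHC-IIhi (SE 0.08, adjusted p = 2.8e-08), with ranges apart, and by 0.22 in MHC-IIlo (SE 0.08, adjusted p = 0.0239), with ranges that overlapped. The latter call was lost without fresh library 3 or cultured library 5 of MHC-IIlo.

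**Figure D3:**
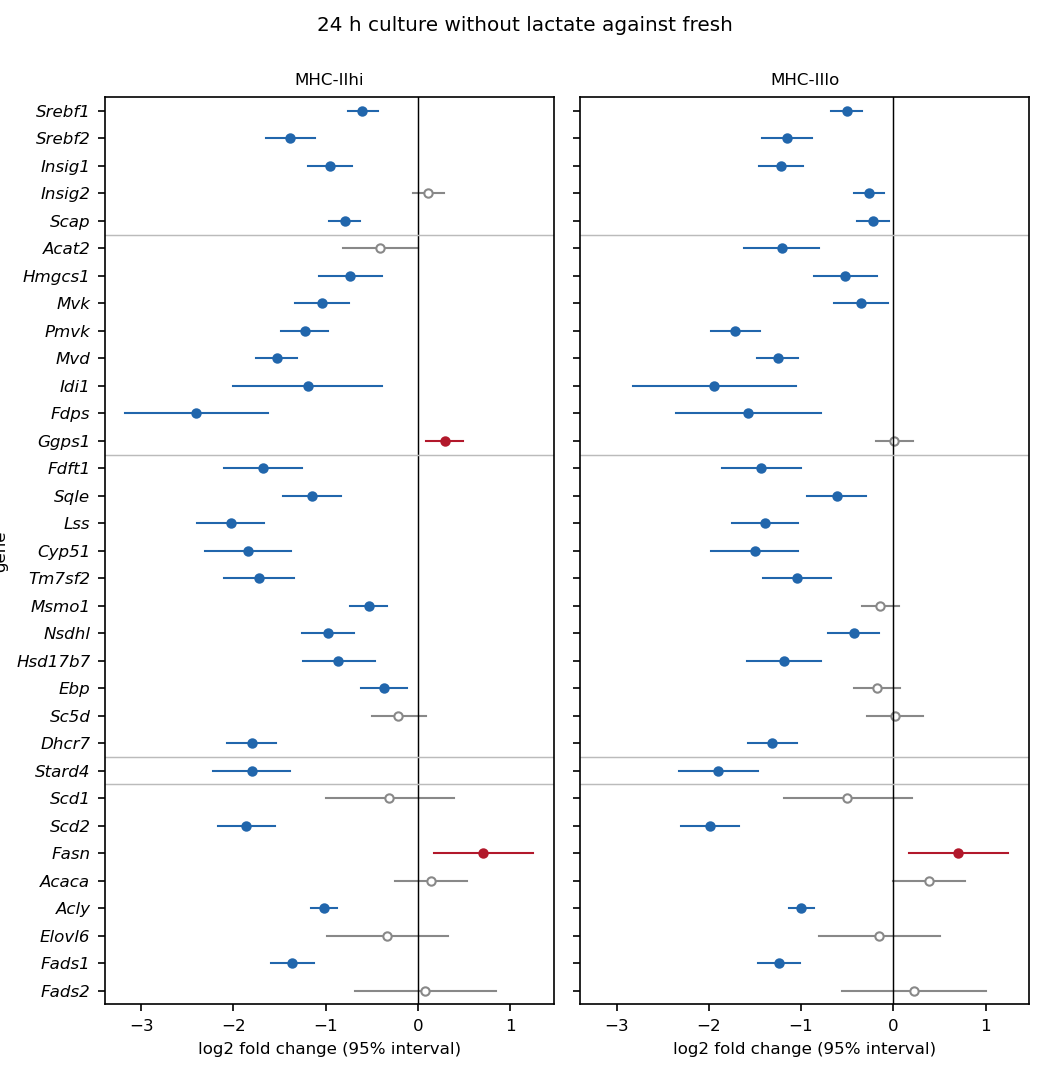
Log2 fold change after 24 h of culture without lactate against fresh cells for the 33 genes, by role, in each subset; points are the fitted values, lines their 95% confidence intervals, and filled points passed an adjusted p under 0.05. Most sterol genes and Acly, Scd2 and Fads1 lie left of 0, and Fasn lies right of 0 in both subsets.

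The effect of culture itself was compared between subsets by an interaction term. Of the members, 2 had a higher and 1 a lower culture effect in MHC-IIlo, against 6.03% and 8.27% of all genes. The members' median difference was 0.19, against -0.02 for all genes, and 22 of 33 lay above 0. Of the 11 squalene and sterol genes, 10 lay above 0, with a median of 0.39, and none was called. In some alternatives Fdps, Sqle, Lss, Tm7sf2, Msmo1, Nsdhl and Dhcr7 were called higher, and Acat2 and Pmvk lower. Scap fell less in MHC-IIlo, with a difference of 0.57 (SE 0.11, adjusted p = 0.00175). Its levels were 50.5, 56.6, 54.8, 52.1 and 49.3 CPM in fresh MHC-IIhi, 36.0, 37.1, 44.1, 37.0 and 38.9 CPM in fresh MHC-IIlo, 30.4, 27.7, 31.0, 26.8 and 34.8 CPM in cultured MHC-IIhi and 32.5, 32.4, 32.9, 31.0 and 36.1 CPM in cultured MHC-IIlo. Fresh MHC-IIlo lay wholly below fresh MHC-IIhi, while the cultured subsets overlapped. Mvk also fell less in MHC-IIlo (0.69, SE 0.20, adjusted p = 0.0217), reading 16.9 to 22.4 CPM fresh and 6.99 to 10.9 CPM cultured in MHC-IIhi and 11.3 to 16.3 against 8.80 to 14.1 CPM in MHC-IIlo. The Mvk call was lost when same-numbered libraries were fitted as a block (adjusted p = 0.0518). Insig2 had the opposite sign (-0.38, SE 0.11, adjusted p = 0.0265). It read 25.2 to 27 CPM fresh and 23.6 to 30.9 CPM cultured in MHC-IIhi, and 29.3 to 34.8 against 24.4 to 27.8 CPM in MHC-IIlo. The Insig2 call was lost with all 30 libraries in 1 fit (adjusted p = 0.120) and without the filter on low counts (adjusted p = 0.0793). It was also lost without fresh MHC-IIlo library 1 or without cultured MHC-IIhi library 3 or 4.

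After culture without lactate, 10 members were lower in MHC-IIlo than in MHC-IIhi and none higher. Over the 13593 genes tested, 11.6% were lower and 9.20% higher. The members' median was -0.31, and 9 members had MHC-IIlo ranges wholly below, against 10.1% of all genes. Pmvk again had the smallest p, with the cultured levels given above (-1.33, SE 0.18, adjusted p = 1.2e-05). Acly was lower at -0.35 (SE 0.07, adjusted p = 0.00152), with every MHC-IIlo library at or under 219 CPM and every MHC-IIhi library at or over 261 CPM. Fdft1 read 12.3, 11.3, 19.1, 12.9 and 11 CPM in MHC-IIhi and 8.79, 6.34, 6.62, 10.7 and 7.37 CPM in MHC-IIlo (-0.74, SE 0.20, adjusted p = 0.0110). The groups were apart by a narrow margin. Insig1 read 30.4, 23.6, 31.0, 28.3 and 31.9 CPM in MHC-IIhi and 18.3, 16.5, 16.4, 20.5 and 22.5 CPM in MHC-IIlo (-0.62, SE 0.17, adjusted p = 0.0123), also with no overlap. Acat2 was lower at -0.73 (adjusted p = 0.0174). These 5 genes were called in every alternative, including each fit that left out 1 library. Cyp51 (-0.90), Hsd17b7 (-0.77), Sc5d (-0.56), Srebf2 (-0.50) and Ggps1 (-0.28) completed the list at adjusted p from 0.0278 to 0.0496. Some alternatives also called Mvd, Idi1, Stard4 and Scd2 lower, and Tm7sf2 and Fads1 higher. DESeq2 called Idi1 (-1.49, adjusted p = 0.0362), Stard4 (-0.75, adjusted p = 0.0358) and Scd2 (-0.65, adjusted p = 0.0480) lower. The count of 10 fell to 5 without MHC-IIhi library 5 or 6 or MHC-IIlo library 3 or 4, and to 6 without MHC-IIlo library 6.

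In culture with lactate, 8 members were lower and 1 higher in MHC-IIlo, against 13.3% and 9.13% of all genes, and 3 had MHC-IIlo ranges wholly below, against 8.32%. The median was -0.21. Pmvk read 20.9, 11.1, 13.1, 15.9 and 16 CPM in MHC-IIhi libraries 1, 3, 4, 5 and 6 and 7.60, 6.5, 8.56, 5.22 and 8.31 CPM in the same-numbered MHC-IIlo libraries (-1.10, SE 0.18, adjusted p = 1.3e-04). Acly read 261 to 299.8 CPM against 194 to 225 CPM (-0.39, SE 0.07, adjusted p = 5.6e-04). Neither gene's groups overlapped. Srebf2 read 139, 151, 98.3, 163 and 125 CPM in MHC-IIhi and 97.9, 86.5, 71.1, 105 and 85.7 CPM in MHC-IIlo (-0.60, SE 0.16, adjusted p = 0.00868). Sqle read 36.7, 49.4, 52.2, 61.9 and 62.8 CPM in MHC-IIhi and 44.7, 34.9, 33.6, 38.1 and 32.2 CPM in MHC-IIlo (-0.52, SE 0.15, adjusted p = 0.0134). The subsets overlapped in both genes. For Srebf2, MHC-IIlo library 5 lay above MHC-IIhi library 4, and for Sqle, MHC-IIlo libraries 1 and 5 lay above MHC-IIhi library 1. Fdft1 (-0.65), Hmgcs1 (-0.60), Msmo1 (-0.29) and Scd2 (-0.71) were also lower, and Scap was higher (0.31, adjusted p = 0.0460). Some alternatives also called Idi1, Cyp51, Hsd17b7, Insig1, Stard4 and Ggps1 lower. Among them, limma voom with quality weights called Cyp51 (-1.02, adjusted p = 0.00597) and Insig1 (-0.70, adjusted p = 6.7e-04) lower. The Scd2 call was lost without the filter on low counts (adjusted p = 0.0543), with the FPKM values (adjusted p = 0.147 to 0.162) and in 16 of the 20 fits that left out 1 library. It was kept only without MHC-IIhi library 5 of the lactate-free cells or, of the lactate cells, MHC-IIhi library 1 or 4 or MHC-IIlo library 5. Msmo1 was not called without the filter (adjusted p = 0.0941), with the FPKM values (adjusted p = 0.0760 to 0.0824) or without lactate library 3, 5 or 6 of MHC-IIhi or 3, 4 or 6 of MHC-IIlo. The count of 8 fell to 4 without MHC-IIhi library 5 or MHC-IIlo library 3 and to 5 without MHC-IIlo library 4, and Scap was no longer called in 11 of the 20 fits that left out 1 library (MHC-IIlo libraries 1, 3, 4 and 5 without lactate, MHC-IIhi libraries 4, 5 and 6 with it, or MHC-IIlo libraries 1, 3, 5 and 6 with it). Without MHC-IIlo library 5, 12 members were lower. That library stood apart in macrophage genes, with 161 CPM of Csf1r where the other 4 had 464 to 726, while its MHC class II genes stayed low.

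Dendritic cell markers also separated the cultured subsets, with 7 of 7 tested lower in MHC-IIlo in either medium. They summed to 100.1 to 306 CPM in MHC-IIhi and 3.15 to 7.82 CPM in MHC-IIlo. Most of the MHC-IIhi sum was Ccr7, with means of 146 CPM without and 125 CPM with lactate. The part of dendritic cells in these differences was not tested. Across the 3 states, 4 members were lower in MHC-IIlo every time: Pmvk, Fdft1, Srebf2 and Acly. The Pmvk calls held in every alternative run. Fdft1 with lactate was not called without MHC-IIhi library 5 (adjusted p = 0.0692) or MHC-IIlo library 3 or 4 (adjusted p = 0.0537 and 0.0615). With the FPKM values Srebf2 was not called in culture without lactate (adjusted p = 0.0746 to 0.0796) or with it (adjusted p = 0.0573 to 0.0629). Without lactate the Srebf2 call was also lost without MHC-IIhi library 5 or 6 or MHC-IIlo library 3, 4 or 6 (adjusted p = 0.0531 to 0.0807). Of the 20 lower in fresh cells, 7 were also lower without lactate and 8 with it. The share of all genes that stayed lower over several states was not counted.

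No member was called for lactate. At an adjusted p under 0.05, edgeR called 0 of 33 in MHC-IIhi, where 0.250% of all genes were called, 0 in MHC-IIlo, where 1.49% were called, and 0 for the difference between subsets, where 0 genes were called. At an unadjusted p under 0.05 the counts were 2, 7 and 1. The members' medians were 0.06, 0.09 and 0.01. The 95% interval of the effect lay within 2-fold in either direction for 30 members in MHC-IIhi and 31 in MHC-IIlo. For Acly, Srebf2 and Pmvk in MHC-IIhi these intervals ran from -0.14 to 0.17, from -0.26 to 0.39 and from -0.51 to 0.21. In MHC-IIlo the smallest p was that of Mvd, at 12.8, 15.7, 11.8, 14.5 and 12.5 CPM without and 13.8, 24.7, 22, 14.2 and 19.1 CPM with lactate (0.48, SE 0.16, adjusted p = 0.109). The ranges overlapped. Ranges without and with lactate lay apart in MHC-IIlo for 1 member upward (Insig2) and 1 downward (Msmo1), against 2.89% and 2.76% of all genes. Limma voom with quality weights called Mvd higher (0.61, adjusted p = 0.00715), Acat2 higher (0.55, adjusted p = 0.0496) and Msmo1 lower (-0.30, adjusted p = 0.0243) in MHC-IIlo, while DESeq2 called none of the 33 in either subset. Mvd in MHC-IIlo was also called with all 30 libraries in 1 fit (adjusted p = 0.0496) and without lactate MHC-IIlo library 1 (0.57, adjusted p = 0.0334). A fit with same-numbered libraries as a block called Mvd (0.45, adjusted p = 0.0418) and Acat2 (0.53, adjusted p = 0.0400) higher in MHC-IIlo.

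**Figure D4:**
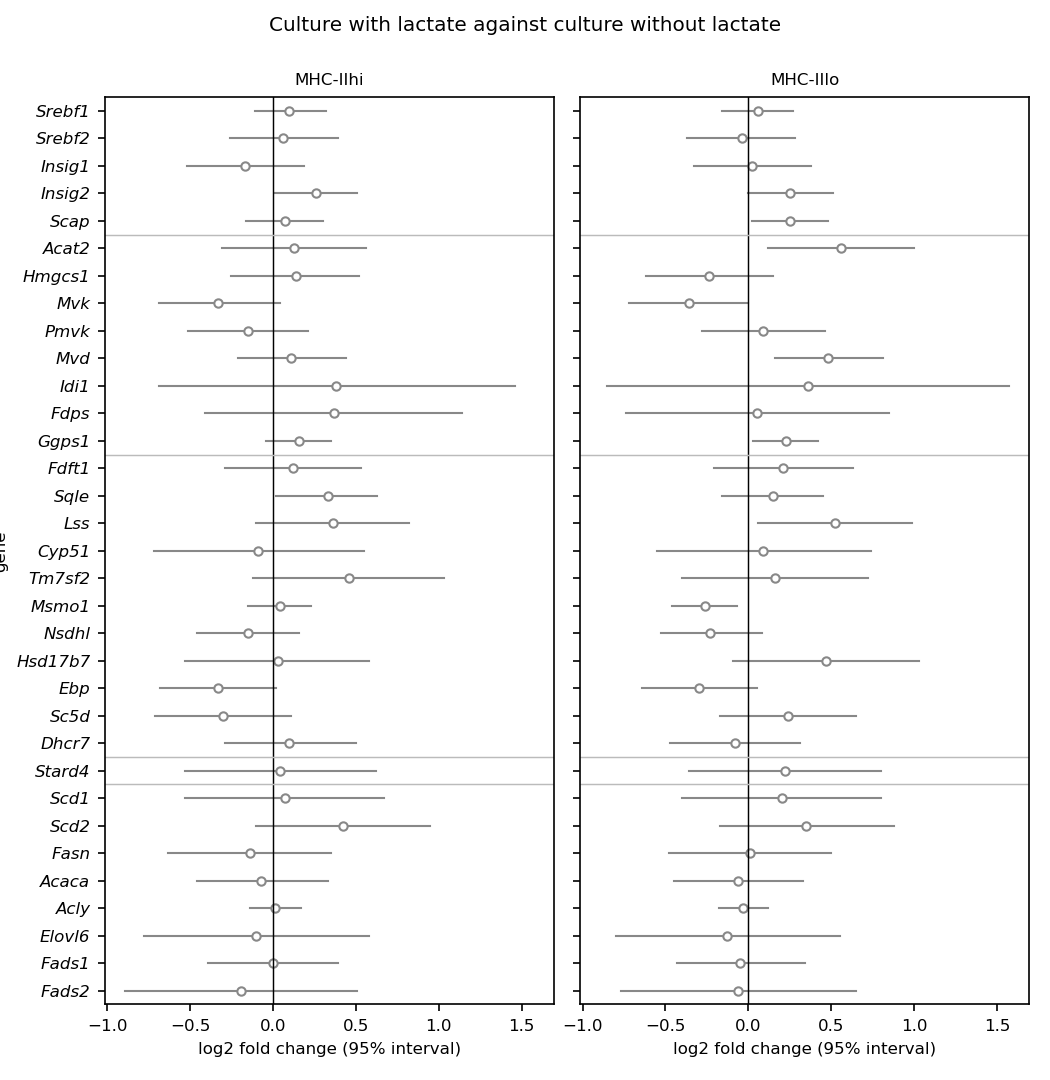
Log2 fold change with 20 mM sodium L-lactate against no lactate after 24 h of culture for the 33 genes, by role, in each subset; points are the fitted values and lines their 95% confidence intervals. No point passed an adjusted p under 0.05, and most intervals span 0.

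Members differed in how much they varied inside a group. The mean coefficient of variation over the 6 groups was 4.61% for Acly and 8.27% for Srebf1, the steadiest genes named here, and 31.0% for Fasn, 32.7% for Cyp51, 38.7% for Scd1, 39.1% for Elovl6 and 44.2% for Fads2. Idi1, at 50.7%, had few reads. The variation followed libraries. In fresh cells, libraries 2 and 3 were the highest 2 in both subsets for 17 of the 33 members, which was so for 8.67% of the 12787 genes tested. The 17 spanned sterol genes (Hmgcs1, Fdps, Fdft1, Sqle, Cyp51, Msmo1, Nsdhl, Hsd17b7, Sc5d, Srebf2 and Stard4) and fatty acid genes (Scd1, Scd2, Fasn, Acaca, Elovl6 and Fads2).

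Fasn showed it most plainly. It read 186, 245, 260.1, 116 and 117 CPM in fresh MHC-IIhi libraries 1 to 5 and 127, 199, 232, 104 and 107 CPM in fresh MHC-IIlo libraries 1 to 5. Libraries 4 and 5 were low in both subsets, and the order of the 5 was the same. Scd1, a second desaturase, read 16.2, 24.3, 28.9, 13 and 11.1 CPM and 11.7, 21, 31.7, 11.4 and 8.31 CPM, and Fads2, the delta-6 desaturase, read 4.96, 7.30, 9.40, 2.58 and 3.84 CPM and 3.42, 5.02, 5.80, 1.31 and 2.28 CPM. In each of the 6 groups, Scd1, Fads2, Hsd17b7 and Sc5d had the same highest library as Fasn. After culture this library was number 5 in MHC-IIhi without lactate (432 CPM of Fasn) and in both subsets with lactate (367 and 389 CPM).

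The sum of 12 proliferation genes was highest in the same library as Fasn in 5 of the 6 groups. The fibroblast and B cell sums shared that library too in fresh MHC-IIhi, MHC-IIhi without lactate and both subsets with lactate. The proliferation sum was 457, 522, 657, 410.3 and 424 CPM in fresh MHC-IIhi libraries 1 to 5 and 415, 589, 729.5, 396 and 500.1 CPM in fresh MHC-IIlo libraries 1 to 5, so libraries 2 and 3 were again the highest. In MHC-IIlo, library 5 was above library 1 for this sum but below it for Fasn. In culture the sum peaked at 1024 CPM in MHC-IIhi library 5 without lactate, 865 CPM in MHC-IIhi library 5 with lactate and 982 CPM in MHC-IIlo library 5 with lactate. The last is the library that stood apart in macrophage genes. In MHC-IIlo without lactate the proliferation sum peaked in library 4 (893 CPM, against 785 CPM in library 5), while Fasn peaked in library 5 (302 CPM, against 287 CPM in library 4). After culture, 10 of the 12 proliferation genes were higher in MHC-IIhi, and 6 were higher and 1 lower in MHC-IIlo, beside the rise of Fasn. The part of proliferation or of other cells in these results was not tested.

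**Figure D5:**
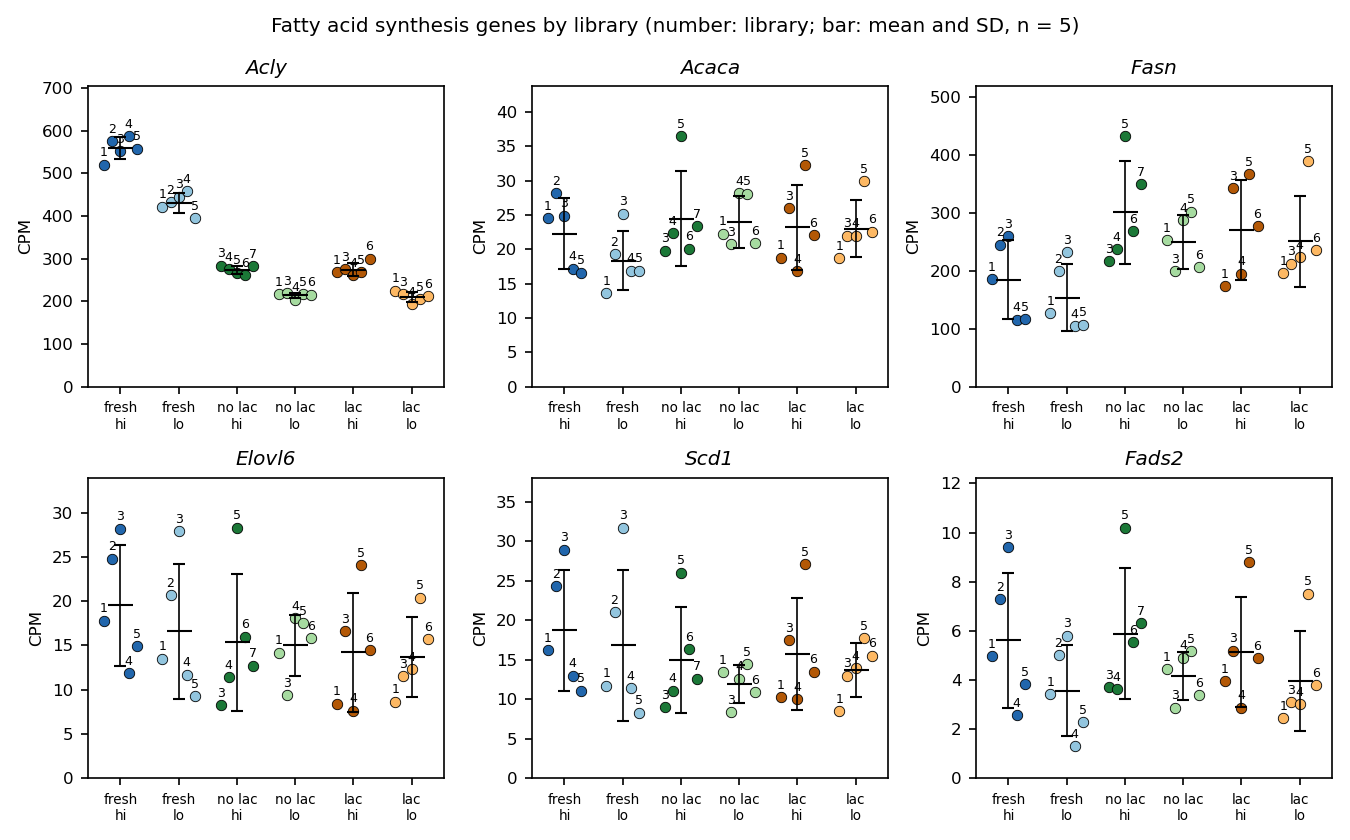
CPM (linear axis from 0) of Acly, Acaca, Fasn, Elovl6, Scd1 and Fads2 in each library, by group (hi, MHC-IIhi; lo, MHC-IIlo; lac, lactate); each point is a library with its number in the deposited table, and bars are the mean and SD of 5 libraries. Fasn, Scd1 and Fads2 are high in the same libraries, such as number 5 of MHC-IIhi without lactate, while Acly is nearly level within each group.

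The other genes of these pathways fall into 4 lists, whose counts are read against all genes as above, 14% higher and 15.2% lower between the fresh subsets, 31.6% up and 30.4% down after culture in MHC-IIhi and 27.6% and 29.9% in MHC-IIlo. Of 12 genes that process or degrade SREBP and its partners, 5 were higher and 1 lower in fresh MHC-IIlo. These included the ubiquitin ligase gene Rnf145 (0.56, SE 0.06, adjusted p = 2.4e-05) and Vcp (-0.34, adjusted p = 0.00313), whose product extracts proteins from the endoplasmic reticulum. After culture 4 rose and 2 fell in MHC-IIhi, and 4 rose and 3 fell in MHC-IIlo, shares near those of all genes for the rises. Mbtps1, the site-1 protease that cuts SREBP, fell in both (-0.59 and -0.50).

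Of 24 accessory genes of fatty acid metabolism, 3 were higher and 3 lower in fresh MHC-IIlo. After culture 4 rose and 12 fell in each subset. Acsl1, an acyl-CoA synthetase, rose by 2.80 in MHC-IIhi and 2.20 in MHC-IIlo, and Lpin1, a phosphatidate phosphatase, fell in both (-2.42 and -1.85). Of 13 accessory genes of sterol and isoprenoid metabolism, 3 were higher and 1 lower in fresh MHC-IIlo, with the fatty acid binding protein gene Fabp5 at 1.32 (adjusted p = 4.3e-04). After culture 2 rose and 5 fell in each subset, with the mitochondrial thiolase gene Acat1 at -1.62 and -1.65.

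Of the genes of LXR and of sterol storage and export, more were higher than lower in MHC-IIlo. In fresh MHC-IIlo, 10 of 21 were higher and 2 lower, with a median of 0.22. Nceh1, a cholesterol ester hydrolase, was higher by 0.98 (SE 0.10, adjusted p = 1.2e-05) and Npc1, which moves cholesterol out of lysosomes, by 0.78 (SE 0.10, adjusted p = 1.1e-04). In culture 7 were higher and 1 lower in MHC-IIlo without lactate, and 5 higher and 1 lower with it. After culture 13 rose and 7 fell in MHC-IIhi and 12 rose and 6 fell in MHC-IIlo. Lipa, the lysosomal acid lipase that frees cholesterol from esters, rose by 2.25 and 2.98. Soat1, which stores cholesterol as ester, rose by 1.44 in MHC-IIhi (adjusted p = 7.9e-11), and Ch25h, which makes 25-hydroxycholesterol, fell by 5.14 in MHC-IIlo (adjusted p = 2.4e-12). No gene of these 4 lists was called for lactate.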

How the data were processed

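The deposited table of raw counts gave read counts per gene for 30 RNA-seq libraries of sorted mouse tumour macrophages. Trimmomatic, STAR, featureCounts and the GRCm38 build are named in the submitters' processing notes, with no versions. A second deposited table gave FPKM values for 13778 genes. FPKM multiplied by gene length had the same distribution in every library, and the step behind this is not given in the sources used here. That table gives no depth and served as an alternative. Cultured columns carry numbers that differ from the labels, so they were assigned by group and keep the table's numbers as names.

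Counts were fitted with edgeR 4.0.16 in R 4.3.3 (filterByExpr, TMM, quasi-likelihood test, Benjamini-Hochberg adjustment over all genes tested) on 10 fresh, 20 cultured or 20 lactate-free libraries with group means. Intervals are at 95%. The fits were tested on simulated data. The analysis was repeated with DESeq2 1.42.0, with limma 3.58.1 (voom, weighting libraries by quality), with size factors by RLE, with genes of low counts kept, with a single model of all 30 libraries, with a replicate block and with each library left out in turn. FPKM were tested by limma's trend method on a log2 scale after adding 1 or 0.1, keeping genes at 1 or more in 5 libraries, or every gene.

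The 33 members and all lists were chosen with earlier results of these data known. Per-library values are printed for the 4 called members with the smallest p in each comparison and for the best member of each role. Other lists give counts and at most 2 genes, and the Fasn, Scd1 and Fads2 libraries were chosen after their values were seen. Total counts per library ran from 16913250 to 31481548, and no 2 libraries were identical.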

Additional observations from a re-analysis of the deposited data

Results flagged for a closer look

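Within the 198 sets of 5 libraries (33 genes in 6 groups), 16 had a highest or lowest library whose gap to the next exceeded Dixon's 95% critical value of 0.71 of the range. Chance gives about 1 in 20 such sets. In MHC-IIhi without lactate, library 5 stood high for Fdft1 (19.1 CPM), Scd2 (142 CPM) and Acaca (36.5 CPM), and library 4 for Mvd (21.7 CPM). In MHC-IIlo with lactate, library 5 stood high for Insig1 (29.6 CPM), Fasn (389 CPM) and Fads2 (7.51 CPM), and library 4 for Idi1 (1.25 CPM). In fresh MHC-IIhi, library 3 stood high for Dhcr7 (37.0 CPM) and Insig1 (63.5 CPM). In MHC-IIhi with lactate, library 6 stood high for Lss (13.1 CPM), library 1 high for Srebf1 (112 CPM) and library 4 low for Scap (23.9 CPM). Library 6 of MHC-IIlo without lactate stood high for Ggps1 (18.6 CPM), and library 4 of that group stood low for Acly (204 CPM). Library 5 of fresh MHC-IIlo stood low for Mvd (25.6 CPM).

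The effect of culture differed between the subsets, by edgeR's interaction test, for Scap (0.57 higher in MHC-IIlo, adjusted p = 0.00175), Mvk (0.69 higher, adjusted p = 0.0217) and Insig2 (-0.38, adjusted p = 0.0265). These were 6.06% of the members higher and 3.03% lower, against 6.03% and 8.27% of all genes. Only the Scap call was made in every alternative.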

How the results depend on the processing

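Some of the calls reported were made in every alternative, the 9 that used every library and each fit that left 1 library out. These were 13 of 22 between fresh subsets, 5 of 10 without lactate and 3 of 9 with lactate. For culture they were 23 of 26 in MHC-IIhi and 22 of 25 in MHC-IIlo. For the difference in culture effect, 1 of 3 (Scap) was made in every alternative. Ggps1 after culture in MHC-IIhi turned to -0.02, -0.03 and -0.02 with the 3 FPKM settings. With all 30 libraries in 1 fit, 0 members were higher in fresh MHC-IIlo, 1 was higher with lactate in MHC-IIlo and 0 had a lower culture effect in MHC-IIlo. With voom, 1 was higher without lactate, 14 were lower with lactate, lactate called 2 higher and 1 lower in MHC-IIlo, culture raised 2 in MHC-IIlo, and the culture effect was higher for 6 and lower for 2. With the FPKM settings, the lactate subsets gave 5 lower and 0 higher (main 8 and 1), culture raised 1 in MHC-IIhi, and the culture effect was higher for 6 in each and lower for 2 with the pseudocount of 0.1 (main 2 and 1). DESeq2 gave 4 higher and 3 lower there, and the fit with no filter gave 0 lower there and 0 higher between the lactate subsets. The causes were not tested.

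The labels give groups the same replicate numbers. Deviations of same-numbered fresh libraries correlated at 0.07, 0.327, 0.497, 0.324 and 0.272 over genes. Numbers 1 to 4 each correlated best with their own number, and number 5 with number 4. With lactate, MHC-IIhi and MHC-IIlo libraries 1, 3, 4, 5 and 6 correlated at 0.484, 0.144, 0.271, 0.299 and -0.0423. MHC-IIlo libraries 1, 3, 4, 5 and 6 without and with lactate correlated at 0.337, 0.303, 0.053, 0.184 and 0.196. For MHC-IIhi libraries 3 to 6 without and with lactate the values were -0.169, 0.324, 0.441 and -0.322. Since in none of these did every number correlate best with its own number, numbers were not taken as pairs. With the replicate block, 23 members were lower in fresh MHC-IIlo (adding Hsd17b7, Fasn and Fads2 at adjusted p = 5.4e-04, 0.00585 and 0.00520), 2 were higher with lactate in MHC-IIlo (Acat2, adjusted p = 0.0400, and Mvd, adjusted p = 0.0418), culture raised 1 in MHC-IIhi and 2 in MHC-IIlo, and 0 had a lower culture effect in MHC-IIlo.

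Leaving out 1 library gave 17 to 21 lower and 2 higher in fresh MHC-IIlo, 5 to 12 lower and 0 to 1 higher without lactate, and 4 to 12 lower and 0 to 1 higher with it. The 12 in both came without MHC-IIlo library 5 with lactate, as did the 1 higher without lactate. Lactate called 0 in MHC-IIhi and 0 to 1 higher in MHC-IIlo (1 without library 1 of MHC-IIlo with lactate). Culture lowered 24 to 25 and raised 1 to 2 in MHC-IIhi, and lowered 22 to 24 and raised 0 to 2 in MHC-IIlo (2 without fresh MHC-IIlo library 3 or cultured MHC-IIhi library 5). The culture effect was higher for 2 to 5 (5 without either of those libraries) and lower for 0 to 2 (2 without fresh MHC-IIhi library 2 or 3, cultured MHC-IIhi library 7 or cultured MHC-IIlo library 3). Depth limits Idi1 and Fdps, whose intervals are among the widest.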
